A study of Mus musculus with 6 samples.

Results

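The genes examined were 8 Kruppel-like factor genes, Klf2, Klf3, Klf4, Klf6, Klf7, Klf9, Klf10 and Klf13, in chromatin accessibility data from mouse bone marrow. Their regions were the ATAC-seq peaks whose summit lay in the span of one of these genes, or nearer to it than to any other protein-coding gene. This gave 56 of the 47233 peaks of the Smc3 het list and 23 of the 14830 peaks of the Smc3 wt list. The genes were chosen with peak counts of these lists in view, so every count below describes the lists and carries no test.

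ATAC-seq uses the Tn5 transposase to insert sequencing adapters into open DNA, so a peak marks a stretch of accessible chromatin. The 6 libraries came from lineage-depleted bone marrow labelled HSPC, hematopoietic stem and progenitor cells. In the Smc3 het group, 3 libraries carried inv(16) with the genotype Smc3 D/+, and in the Smc3 wt group 3 libraries carried inv(16) with Smc3 +/+. All 6 therefore share inv(16), the inversion that in human acute myeloid leukemia fuses CBFB to MYH11. All were treated by viral transduction and tamoxifen-induction of Creon, as the labels put it, while age, sex and the Cre driver are not stated in the labels. Smc3 encodes a ring subunit of cohesin, and per its title the study asked how loss of a cohesin allele and inv(16) act together on Fli1 programs.

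Kruppel-like factors are transcription factors that bind GC-rich boxes and CACCC boxes through a block of C2H2 zinc fingers at the C terminus, next to the related SP factors. Their N-terminal parts differ and decide the partners: Klf3 recruits the corepressor CtBP, and Klf9, Klf10 and Klf13 can recruit Sin3a, while Klf2, Klf4, Klf6 and Klf7 are mostly described as activators. In blood, Klf4 promotes monocyte differentiation, Klf2 keeps T cells quiescent and restrains monocyte activation, and Klf3 counters Klf1 in erythroid cells.

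The authors deposited 1 peak list per genotype, and values per library were not analysed here, so no difference has a replicate check. Fold over background, -log10 p and -log10 q are the authors' values for a peak within its own list. The pileup, the peak caller's count of overlapping reads or fragments at a summit, was solved from the fold and p-value. Which of these was counted is not given. It is not scaled between the lists, and the genome-wide background was 10.6 for Smc3 het, against 8.65 for Smc3 wt. The lowest pileup of a listed peak was 23 for Smc3 het, against 21 for Smc3 wt. A site without a peak is thus one that missed the list's threshold, not one shown to be closed. Of 8 stem and progenitor marker genes, 2 had a peak within 1 kb of a gene end in both lists, 3 in Smc3 het alone and 3 in neither. The shares of all genes in these gene-end states were not counted. Meis1 had 14 Smc3 het and 5 Smc3 wt peaks, and Mecom had 10 and 1 in those lists. Markers of other cells were not free of peaks. The 4 T and NK cell genes had 16 Smc3 het and 3 Smc3 wt peaks, mostly at Gata3 (12 in Smc3 het, 3 in Smc3 wt) and Tcf7 (4 in Smc3 het, 0 in Smc3 wt), while Cd3e and Nkg7 had 0 in either list. The 4 B cell genes had 5 Smc3 het and 0 Smc3 wt peaks, 4 of them at Ebf1, and Cd79a had 0 in either list. At the 5 granulocyte genes 5 Smc3 het peaks were listed, against 1 unmatched Smc3 wt peak, at S100a8. The 5 erythroid and megakaryocyte genes had 12 Smc3 het and 2 Smc3 wt peaks, and the 4 stromal and endothelial genes 20 and 2 in those lists. The part of such cells in the results below was not tested.

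The promoter DNA of the family is shown first, because the factors bind the same kind of boxes that their own promoters hold. The RefSeq promoter table (GRCm38.p6, the assembly of mm10) matched 7 of the 8 genes, and Klf10 had no entry. The 250 bases before the start site are printed for 5 genes, 5′ to 3′ on the gene's strand, with the CACCC box and the GC box GGGCGG, or their reverse complements, in capitals. Adjacent capitals can hold overlapping boxes. Klf4 is shown because its start-site peak was in the Smc3 het list alone, Klf3 for its many boxes, Klf2 and Klf13 as examples with both box types and the summits of both lists inside the window, and Klf9 for the absence of GGGCGG.
Klf4, chr4:55532476-55532725, minus strand: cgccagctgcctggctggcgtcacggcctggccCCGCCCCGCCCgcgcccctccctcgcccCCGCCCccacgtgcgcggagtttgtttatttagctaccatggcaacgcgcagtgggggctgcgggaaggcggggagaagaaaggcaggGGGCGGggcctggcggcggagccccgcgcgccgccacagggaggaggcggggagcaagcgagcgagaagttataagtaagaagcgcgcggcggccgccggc
Klf3, chr5:64803271-64803520, plus strand: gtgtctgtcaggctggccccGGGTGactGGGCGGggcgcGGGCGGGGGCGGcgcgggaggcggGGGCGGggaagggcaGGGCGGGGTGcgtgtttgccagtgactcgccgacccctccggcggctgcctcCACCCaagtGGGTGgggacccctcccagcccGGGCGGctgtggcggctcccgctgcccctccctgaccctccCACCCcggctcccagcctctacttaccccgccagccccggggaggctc
Klf2, chr8:72318812-72319061, plus strand: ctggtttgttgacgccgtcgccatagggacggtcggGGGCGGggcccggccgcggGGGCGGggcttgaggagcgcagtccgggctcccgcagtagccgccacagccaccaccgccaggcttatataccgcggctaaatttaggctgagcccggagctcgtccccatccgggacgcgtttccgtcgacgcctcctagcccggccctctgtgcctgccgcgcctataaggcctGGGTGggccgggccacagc
Klf13, chr7:63938916-63939165, minus strand: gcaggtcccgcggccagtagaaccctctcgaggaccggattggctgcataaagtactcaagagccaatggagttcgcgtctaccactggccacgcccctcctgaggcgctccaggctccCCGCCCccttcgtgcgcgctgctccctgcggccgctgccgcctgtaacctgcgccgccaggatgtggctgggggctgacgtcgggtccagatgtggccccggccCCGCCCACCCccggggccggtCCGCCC
Klf9, chr19:23140976-23141225, plus strand: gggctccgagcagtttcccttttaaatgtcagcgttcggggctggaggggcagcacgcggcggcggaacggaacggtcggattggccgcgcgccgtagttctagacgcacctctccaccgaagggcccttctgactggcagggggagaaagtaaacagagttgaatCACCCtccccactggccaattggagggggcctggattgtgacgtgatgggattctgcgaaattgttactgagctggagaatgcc

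GGGCGG, the GC box of SP and Kruppel-like factors, was present on either strand in 6 of the 7 windows, all but Klf9, against 32.7% of 32851 RefSeq promoters of the same length. CACCC was present in 5 of 7, against 52.0% of all promoters, and was missing at Klf4 and Klf6. Klf3 held most, with 5 CACCC boxes and 6 GC boxes. Klf4 held 4 GC boxes, Klf13 held 3 GC boxes and 1 CACCC box, and Klf2 held 2 GC boxes and 1 CACCC box. The NF-Y box CCAAT occurred at Klf6 (4 times), Klf9 (3 times) and Klf13 (2 times), and in 33.8% of all promoters. The ETS core CCGGAA was in 0 of the 7 windows, against 12.0% of all promoters. The RUNX core TGTGGT was in 0, against 14.0%, and the AP-1 site TGACTCA in 0, against 4.46%. The exact string TATAAA, a form of the TATA box, was in 0, against 12.4%. Other forms were not searched, and the printed Klf2 and Klf4 windows hold TATAAG near their 3′ end. All motifs were searched on both strands. The GC content was 78.4% at Klf3, 74.0% at Klf4, 71.6% at Klf13, 71.2% at Klf2, 64.8% at Klf6, 59.6% at Klf9 and 59.2% at Klf7, above the median of 52.4% over all promoters in each case. The part that base composition has in the box counts was not tested. These matches are letters in a window and say nothing of binding.

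Accessibility at the start sites was listed in both genotypes for 6 of the 7 genes with a known start site. Over all 17492 genes with a RefSeq start site, 40.7% had a summit within 1 kb of one in both lists, 13.2% in the Smc3 het list alone and 45.9% in neither. Klf13 had the strongest of these peaks, with a pileup of 209 and a fold of 7.76 in Smc3 het, against a pileup of 125 and a fold of 6.57 in Smc3 wt. Both summits lay at the same base, 198 bp upstream of the start, which is base 53 of the printed window. Klf7 had a pileup of 165 in Smc3 het, against 100 in Smc3 wt, with both summits 401 bp upstream of the start, and Klf6 had 151 in Smc3 het, 180 bp upstream, against 115 in Smc3 wt, 226 bp upstream. Klf9 had 127 in Smc3 het, 153 bp upstream, and 71 in Smc3 wt, 212 bp upstream. Klf2 had 113 in Smc3 het, 55 bp upstream, and 65 in Smc3 wt, 57 bp upstream, at bases 196 and 194 of its window. The Smc3 het peaks of these 5 genes were all in the most significant decile of their list, with -log10 q between 49.4 (Klf2) and 107.6 (Klf13) as their range.

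Klf3 and Klf4 departed from that pattern in different ways. At Klf3 a start-site peak was listed in both genotypes, at 64802633 to 64803281 with a pileup of 86 in Smc3 het and at 64802852 to 64803273 with 55 in Smc3 wt. Its summit lay 373 bp upstream of the start in Smc3 het and 414 bp upstream in Smc3 wt, within the span of the overlapping gene Gm38457 (64802370 to 64809180). The nearest-gene rule therefore left it out of the 56 and 23 peaks, and it is the nearest peak just outside the rule. Just inside it, among summits outside their gene, was one 1002 bp from Klf2 and 18334 bp from Eps15l1. At Klf4 the Smc3 het peak at 55532726 to 55533044 had a pileup of 47 and a -log10 q of 12.1, and no Smc3 wt peak overlapped it. It was the weakest start-site peak of the 7 genes in Smc3 het, began directly upstream of the printed window, and covered 0 of its 250 bases.

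**Figure D1:**
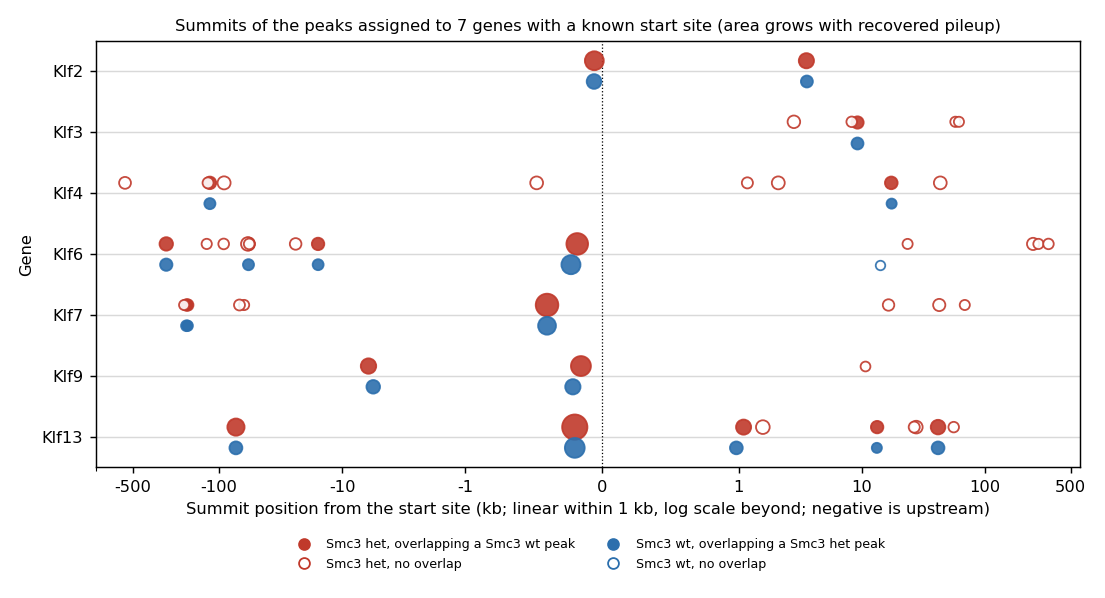
Summit positions of the peaks of 7 genes relative to the RefSeq start site in kb (linear within 1 kb, log scale beyond, upstream negative), with Smc3 het in red above Smc3 wt in blue. Filled points overlap a peak of the other list and open points do not; point area grows with the recovered pileup. The large points near 0 are filled at Klf2, Klf6, Klf7, Klf9 and Klf13, and most open points lie further out. The Klf3 start-site peak, which the gene rule gives to Gm38457, and Klf10, with no start site in the table, are not drawn.

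Across the family, 34 of the 56 Smc3 het peaks (60.7%, exact Clopper-Pearson 95% interval 46.8 to 73.5, counting error only) overlapped no Smc3 wt peak, against 69.9% of all Smc3 het peaks. The interval takes the 56 peaks as independent draws, although several lie at the same gene, so it is no test against the 69.9%. The other 22 Smc3 het peaks overlapped 22 of the 23 Smc3 wt peaks. The remaining Smc3 wt peak, at Klf6, overlapped no Smc3 het peak, against 2.9% of all Smc3 wt peaks, and 1 of the 8 genes had such a peak, against 1.77% of all genes. By gene, 7 of 8 had at least 1 peak in the Smc3 het list alone, against 56.4% of 21887 protein-coding genes and 76.9% of the genes with a Smc3 het peak. The members had a median of 4 such peaks and all genes a median of 1. The genes differed: 0 of 2 Smc3 het peaks lacked a Smc3 wt counterpart at Klf2, 1 of 3 at Klf9, 4 of 9 at Klf13, 3 of 6 at Klf10, 6 of 9 at Klf7, 9 of 13 at Klf6, 7 of 9 at Klf4 and 4 of 5 at Klf3.

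**Figure D2:**
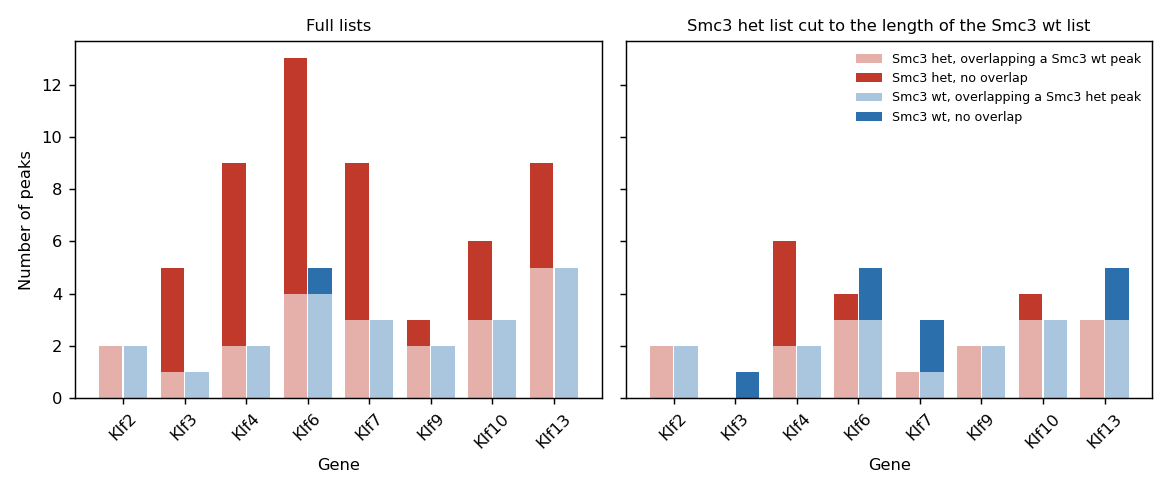
Number of peaks at each gene in the Smc3 het list (red) and the Smc3 wt list (blue), with peaks that overlap the other list in pale and the others in dark. The left panel has the full lists, in which Klf6 leads with 13 Smc3 het and 5 Smc3 wt peaks; the right panel has the Smc3 het list cut to 14830 peaks, in which the Klf4 bar is the one with most unmatched Smc3 het peaks, 4.

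Peaks found in the Smc3 het list alone were the weaker ones at these genes, as they were over the whole list. Their -log10 q was 1.69 to 34.4 with a median of 4.36, against 6.98 to 107.6 with a median of 18.3 for the shared Smc3 het peaks of the same genes. Over all Smc3 het peaks the medians were 4.64 alone and 24.7 shared. The median pileup was 32.5 alone and 69.5 shared, and the median width 250.5 bp alone and 578 bp shared. When the Smc3 het list was divided into deciles of significance, 8 members' peaks fell in the most significant decile and 0 of these lacked a Smc3 wt peak, against 1.83% of all peaks there. In the third decile 4 of 9 lacked one, against 48.4%, and in the fourth 5 of 8, against 70.6%. All 20 peaks in the last 4 deciles lacked one, where the whole list had 93.9% or more in each. With the whole list's share in each decile, 36.7 of the 56 would be in the Smc3 het list alone, near the 34 found.

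**Figure D3:**
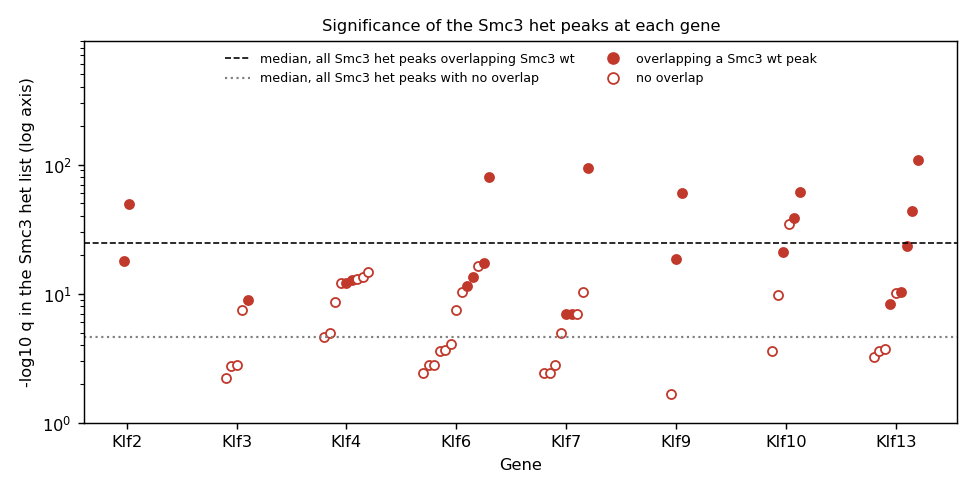
Significance (-log10 q, log axis) of each Smc3 het peak by gene, filled where a Smc3 wt peak overlaps and open where none does. The dashed and dotted lines are the medians of all Smc3 het peaks with (24.7) and without (4.64) a Smc3 wt overlap. The open point far above the dotted line at Klf10 has a -log10 q of 34.4, and the open points at Klf4 reach 14.7.

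Most of the Smc3 het peaks without a counterpart lay away from the gene. Of the 34, 22 lay outside the gene, 11 inside and 1, the Klf4 start-site peak, within 1 kb of a gene end. Of the 22 shared Smc3 het peaks, 10 lay outside, 5 inside and 7 at a gene end. Outside their gene lay 44.7% of all Smc3 het peaks found alone and 22.1% of all shared ones. Over all placed Smc3 het peaks 12.3% of those alone and 50.5% of the shared lay within 1 kb of an end of their gene. More than 50 kb outside the gene lay 14 of the 34 and 7 of the 22, against 17.3% and 6.94% over all peaks. Several of these genes stand in long stretches without another protein-coding gene, such as Klf6, with 1252.3 kb to Akr1e1 on one side and 677.7 kb to Pitrm1 on the other, and Klf4, with 1207.5 kb to Actl7b. The part of these gaps in the counts was not tested, and a peak's assignment does not show that it acts on the gene.

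Among the genes mostly described as activators, Klf4 (chromosome 4, 55527137 to 55532475) had the highest share of unmatched Smc3 het peaks. That share was 7 of 9 (77.8%), against 80.0% at Klf3 and 69.9% of all Smc3 het peaks. The 9 Smc3 het peaks of Klf4 were of like size, with pileups of 32 to 49, and the 2 Smc3 wt peaks had pileups of 26 and 33. Of the 7 without counterpart, the strongest lay 91.1 kb upstream at 55623477 to 55623691 (pileup 49, -log10 q 14.7) and the next 43.6 kb downstream of the start at 55488637 to 55488908 (pileup 47, -log10 q 13.4). Another lay inside the gene at 55530181 to 55530899 (pileup 48, -log10 q 13.0, width 719 bp). The most distant lay 581.6 kb upstream, nearer to Klf4 than to Actl7b, with a pileup of 39. The 2 shared sites lay 17.4 kb downstream of the start, with a pileup of 46 in Smc3 het against 26 in Smc3 wt, and 118.8 kb upstream, with 45 in Smc3 het against 33 in Smc3 wt and the summits on the same base. The summits at -477 bp and at 91.1 kb upstream lay within the long noncoding RNA gene Gm12506.

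Klf4 is itself a monocyte factor, so the monocyte and macrophage markers are given beside it. Of their 38 Smc3 het peaks 34 (89.5%) overlapped no Smc3 wt peak, against 69.9% of the whole list, and all 4 of their Smc3 wt peaks were shared. At least 1 such Smc3 het peak was listed at 8 of 8 genes, against 76.9% of all genes with a Smc3 het peak. At 4 genes a gene-end peak was listed in Smc3 het alone, at 4 in neither list and at 0 in both lists, with no count over all genes to set beside these. For the stem and progenitor markers 43 of 53 (81.1%) were unmatched. The share was 90.0% at the stromal and endothelial markers, 83.3% at the erythroid and megakaryocyte markers and 81.2% at the T and NK cell markers. All 5 Smc3 het peaks of the granulocyte markers and all 5 of the B cell markers were unmatched. At equal list length 4 of the 7 Smc3 het peaks kept at the monocyte and macrophage markers were unmatched, and 1 of their 4 Smc3 wt peaks. At the stem and progenitor markers 9 of 18 Smc3 het and 1 of 10 Smc3 wt peaks were unmatched. Over the whole lists at that length the shares were 23.9% for Smc3 het and 22.4% for Smc3 wt. The part of monocytic cells in the Klf4 counts was not tested.

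Klf2 (chromosome 8, 72319062 to 72321654) was the opposite case, with every peak in both lists. Besides its start-site peak it had a second peak 3561 bp downstream of the start, just beyond the other gene end, at 72322476 to 72322926 in Smc3 het (pileup 70) and at 72322521 to 72322748 in Smc3 wt (pileup 40). The pileup ratio of Smc3 het over Smc3 wt was 1.74 and 1.75 at the Klf2 sites. The 2 Smc3 het peaks stood in deciles 1 and 3 of their list, where 1.83% and 48.4% of all peaks lacked a counterpart.

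Klf6 (chromosome 13, 5861489 to 5870393), a widely expressed factor first known as a core promoter element binding protein, had the most peaks, 13 in Smc3 het against 5 in Smc3 wt, and its start-site peak was the one at the gene. The other 12 Smc3 het peaks lay between 268.8 kb upstream and 330.6 kb downstream of the start. A group of 3 Smc3 het peaks lay between 58.5 and 56.9 kb upstream. Its middle peak, at 5803685 to 5803931 with a pileup of 48, overlapped a Smc3 wt peak with a pileup of 33. Its outer peaks, with pileups of 53 and 30, did not, although they lay 568 and 473 bp from that Smc3 wt peak. Shared sites also lay 268.8 kb upstream (pileup 53 in Smc3 het against 43 in Smc3 wt, summits 1 bp apart) and 15.7 kb upstream (44 in Smc3 het against 32 in Smc3 wt). The peak in the Smc3 wt list alone lay 14.2 kb downstream of the start at 5875447 to 5875713. Its pileup was 22 and its -log10 q 1.76, close to the list's lowest of 1.33, and the nearest Smc3 het peak was 9319 bp away.

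Klf7 (chromosome 1, 64029448 to 64122345), known for roles in neurons and adipocytes, had 9 Smc3 het peaks. Of these 6 (66.7%) had no counterpart, against 69.9% of all Smc3 het peaks. Among the 6, 3 lay inside the gene, at 16.6, 42.8 and 69.0 kb downstream of the start with pileups of 36, 42 and 26. The other 3 lay 62.7, 68.3 and 192.6 kb upstream with pileups of 27, 32 and 26. The shared distal sites, 180.0 and 184.2 kb upstream, had pileups of 36 and 36 in Smc3 het, against 28 and 31 in Smc3 wt. The value of 36 was the smallest among the shared Smc3 het peaks of the family.

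Klf3 (chromosome 5, 64803521 to 64832901), the CtBP-recruiting repressor, had 1 shared site besides its start-site peak, 9.2 kb downstream of the start inside the gene. It had a pileup of 43 and a width of 746 bp in Smc3 het, against a pileup of 40 and a width of 351 bp in Smc3 wt, with summits 2 bp apart. The pileup ratio of 1.08 was the lowest of the 22 pairs, and the fold was 3.303 in Smc3 het, against 3.88 in Smc3 wt. Its 4 Smc3 het peaks without counterpart had pileups of 45, 29, 27 and 26, and 2 of them lay beyond the gene, 28.5 and 32.5 kb from its end. The peak 2.8 kb downstream of the start lay in the spans of both Klf3 and Gm38457 and was counted for both.

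Of the genes whose products can recruit Sin3a, Klf10 held the strongest Smc3 het peak without counterpart in the family. Klf10 (chromosome 15, 38291464 to 38300711) was first described as an early gene induced by TGF-beta. The peak lay 7.8 kb outside the gene at 38308338 to 38308675, within the long noncoding RNA gene Gm35248, with a pileup of 75, a fold of 6.54 and a -log10 q of 34.4. It stood in the second decile of the Smc3 het list, in which 16.0% of peaks lacked a Smc3 wt counterpart. Its other 2 unmatched peaks, 10.9 and 73.3 kb from the gene, had pileups of 29 and 41. Shared peaks lay at the gene end at 38300711 (pileup 149 in Smc3 het, 97 in Smc3 wt), inside the gene (90 in Smc3 het, 59 in Smc3 wt) and 84.2 kb outside it (89 in Smc3 het, 53 in Smc3 wt). The strand of Klf10 was not given in the tables used, so which end is the start is not stated.

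Klf13 (chromosome 7, 63886351 to 63938915), known from T cells as an activator of the chemokine gene Ccl5, had 5 of its 9 Smc3 het peaks in both lists. They were spread from 72.9 kb upstream to 41.9 kb downstream of the start. The upstream site, at 64011613 to 64012035 within the long noncoding RNA gene Gm32633, had a pileup of 92 in Smc3 het against 48 in Smc3 wt, and its ratio of 1.92 was the highest of the 22 pairs. The 4 unmatched peaks had pileups of 29, 46, 33 and 55. The one with 55, 1.6 kb downstream of the start, had a fold of 1.93 over a local background of 28.0, and it lay 359 bp from a Smc3 wt peak.

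Klf9 (chromosome 19, 23141226 to 23168129), a gene induced by glucocorticoids and thyroid hormone, had the widest peak of the family. This peak, with its Smc3 het summit 6.1 kb upstream within the long noncoding RNA gene 2410080I02Rik, measured 2123 bp in Smc3 het (23134131 to 23136253), against 1213 bp in Smc3 wt (23135085 to 23136297). The pileup was 72 in Smc3 het, against 54 in Smc3 wt, and the summits stood 519 bp apart, so the highest point of this region was not the same in the lists. The unmatched Klf9 peak, 10.7 kb downstream of the start, was the least significant of the 34, with a pileup of 24 and a -log10 q of 1.69.

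Where both lists held a peak, the summits mostly coincided. Of the 22 pairs, 16 (72.7%) had summits within 50 bp, against 55.1% of all 14522 overlapping pairs, and the median distance was 29.5 bp, against 43 bp. The Smc3 het peak was the wider in 18 of 22 pairs (81.8%), against 89.1% over all pairs, and the median widths of the 22 were 578 bp for Smc3 het and 390 bp for Smc3 wt. The exceptions were 2 Klf7 pairs and 1 Klf6 pair, wider in Smc3 wt, and 1 Klf7 pair of 292 bp in each list. The Smc3 het pileup was higher in all 22 pairs, as in 98.6% of all pairs with a solved pileup. The median ratio of Smc3 het over Smc3 wt was 1.5 at the members and 1.63 over all pairs, with 1.16 and 2.23 as the 5th and 95th percentiles of all pairs. The ratio of the genome-wide backgrounds was 1.23. The authors' fold, relative to each list's own background, was not higher in Smc3 het in every pair. It was lower in Smc3 het at the Klf3 pair (3.303, against 3.88 in Smc3 wt). The same held at the Klf9 pair 6.1 kb upstream (3.853 against 3.97) and the Klf7 pair 184.2 kb upstream (3.184 against 3.315). In the other pairs the Smc3 het fold was higher. Since pileups were not scaled for depth, the ratios order the sites within the lists and do not measure a change in accessibility.

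**Figure D4:**
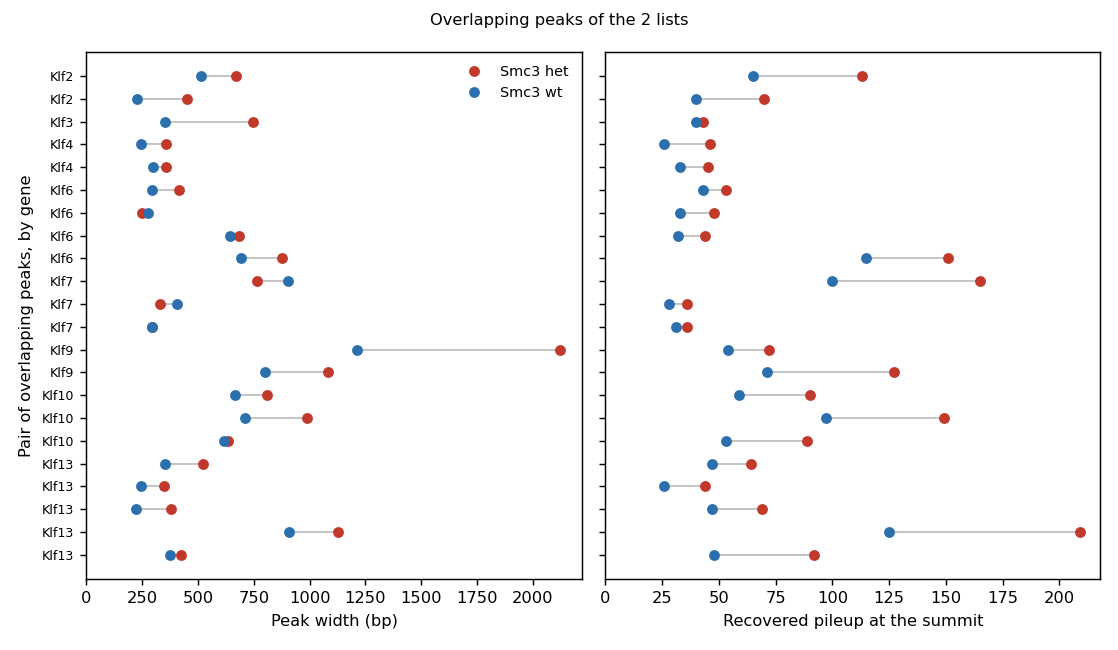
Width in bp (left) and recovered pileup at the summit (right) of the 22 pairs of overlapping peaks, Smc3 het in red and Smc3 wt in blue, 1 row per pair grouped by gene. The longest line in the left panel is the Klf9 region at 2123 bp for Smc3 het, against 1213 bp for Smc3 wt; in the right panel all 22 red points lie right of the blue ones, and pileups are not scaled between the lists.

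At equal list length most of the unmatched Smc3 het peaks were at Klf4. Only the 14830 most significant Smc3 het peaks were then used, among them 22 of the 56. Of these, 6 (27.3%) had no Smc3 wt counterpart, against 23.9% of all Smc3 het peaks at that length. Klf4 held 4 of the 6, at 91.1 kb upstream, at the start site, inside the gene and at 43.6 kb downstream of the start. Klf6 held 1, at 58.5 kb upstream, and Klf10 held 1, the peak 7.8 kb outside the gene. In the other direction the shortened list left 7 of the 23 Smc3 wt peaks unmatched, against 22.4% of all Smc3 wt peaks. These were 2 each at Klf6, Klf7 and Klf13 and 1 at Klf3, and 6 of the 7 overlapped a Smc3 het peak of the full list. Klf4 thus had 4 unmatched Smc3 het and 0 unmatched Smc3 wt peaks at this length, and Klf2 and Klf9 had 0 of either. The 4 Klf4 peaks stood at ranks 12126 to 14659 of the 14830 kept. They were in deciles 3 and 4 of the full Smc3 het list, where 48.4% and 70.6% of all peaks lacked a counterpart.

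The rest of the family was described from the same counts. The 18 other Kruppel-like and SP genes had 67 Smc3 het peaks, of which 53 (79.1%) overlapped no Smc3 wt peak, against 69.9% of the whole list. All 14 of their Smc3 wt peaks were shared, where 2.9% of the whole list was not. The median number without counterpart was 2.5 per gene, against 4 for the 8 genes above and 1 over all genes. Klf14 had most, 9 of 12, followed by Klf12 with 7 of 8, and by Sp3 and Sp8 with 5 of 6 and 5 of 5. A gene-end peak was listed in both genotypes at 6 of the 18, in the Smc3 het list alone at 5 and in neither at 7. Gene-end states were not counted over all genes. At equal list length 2 of the 14 Smc3 het peaks left at the 18 genes were unmatched, against 23.9% of that whole list, and 2 of the 14 Smc3 wt peaks, against 22.4%.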

How the data were processed

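Per the labels, 3 ATAC-seq libraries of each genotype came from lineage-depleted bone marrow. The submitters' processing notes name Bowtie2, an aligner, MACS2, a peak caller, and the build mm10. Not given in the sources used here are versions, read filters, any Tn5 shift and whether libraries were pooled. For each genotype the authors deposited 1 narrowPeak list, tied to it by its peak names. Each gives the peak caller's integer score, fold over background (a ratio), -log10 p, -log10 q and summit offset, all deposited by the authors as values of that peak.

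The score was not used further. Overlap (1 bp or more), nearest protein-coding gene (RefSeq GRCm38.p6), start sites and promoter sequence were computed with Python 3.11.15, numpy 2.4.6, pandas 2.3.3 and scipy 1.17.1. Overlap was checked on simulated peaks with bedtools 2.31.1. Pileup was solved from fold = (pileup + 1) / (background + 1) and the Poisson tail. For peaks with -log10 p under 150 it matched the deposited p within 0.01 for 99.99% of peaks in Smc3 het, against 100% in Smc3 wt. Read depth is unknown. A gene-end peak has its summit within 1 kb of an end of its gene. The 8 genes, the gene lists and the motifs were chosen with earlier results of these data known. The text names the 8 genes, of every other list up to 4 genes with most unmatched Smc3 het peaks and those with an unmatched Smc3 wt peak, and neighbours of the 8. Marker lists are given mainly as counts, and Cd79a, Cd3e, Nkg7, Sin3a and Ctbp1 were named outside that rule, after their values were seen. Protein sequences, planned for comparison, were not analysed here. No test over samples could be made with 1 list per genotype.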

Additional observations from a re-analysis of the deposited data

How the results depend on the processing

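The main counts, 34 peaks in the Smc3 het list alone, 22 shared and 1 in the Smc3 wt list alone, depended on list length, on how far from a gene a peak may lie and on which classes of gene may hold it. At equal list length by -log10 q or by fold, 6 were in the Smc3 het list alone (27.3% of those kept) and 7 in the Smc3 wt list alone. With a -log10 q of at least 5 in both lists, 18 were in the Smc3 het list alone and 0 in the Smc3 wt list alone, and with at least 3 the Smc3 wt count was also 0. With summits in the gene or within 5 kb, 13 were in the Smc3 het list alone, 13 shared and 0 in the Smc3 wt list alone. Within 50 kb, 20 were in the Smc3 het list alone. With genes of every class competing for peaks, 14 were in the Smc3 het list alone and 12 shared. As shares of the members' Smc3 het peaks, those alone were 50% at a -log10 q of at least 5 and 50% within 5 kb. The shares were 57.1% within 50 kb and 53.8% with genes of every class, against 60.7% in the main count. The share of all peaks unmatched was not counted under these settings. An overlap of 50% of both peaks left 2 in the Smc3 wt list alone. Klf4 kept 3 peaks in the Smc3 het list alone within 5 kb of the gene, 4 at equal list length and 2 with genes of every class. Taking peak midpoints, or counting peaks within 500 bp as shared, moved each gene's count by less than 1.5 times. So did counting start-site summits for their gene, an alternative added after seeing the data. No paired analysis was possible because the lists carry no values per library, and leaving out libraries was not run for the same reason. Depth is unknown, so a missing peak cannot be told apart from too few reads.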

Other observations

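Genes that act with or on Kruppel-like factors were counted in the same way. Of the 11 cofactor and ubiquitin ligase genes, 8 had at least 1 peak in the Smc3 het list alone. The share was 56.4% of all genes and 76.9% of those with a Smc3 het peak. Of the 35 Smc3 het peaks at the 11 genes, 21 (60.0%) had no Smc3 wt counterpart, against 69.9% of the whole list. Ctbp2, a corepressor partner of Klf3, had 4 of 4, the acetyltransferase gene Kat2b 4 of 4 and the LIM protein gene Fhl3 4 of 4, whereas Sin3a, the corepressor bound by Klf9, Klf10 and Klf13, had 0 of 3 and Ctbp1 0 of 2. Sin3a and Ctbp1 were named after their values were seen. The highest -log10 q of a Smc3 het peak was 6.465 at Ctbp2, 31.2 at Kat2b, 25.0 at Fhl3, 57.4 at Sin3a and 7.1 at Ctbp1. At equal list length 0 Smc3 het peaks were kept at Ctbp2 and at Ctbp1. The part of peak strength in these counts was not tested.

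Of the 13 upstream regulator genes 12 had such a peak, against 56.4% of all genes and 76.9% of those with a Smc3 het peak. Of their 80 Smc3 het peaks 56 (70.0%) were unmatched, a share near the 69.9% of the whole list. Mef2c, a MEF2 factor, had 12 of 14, Smad3, which transmits TGF-beta signals, 12 of 14 and Foxo1 7 of 10. Of their 26 Smc3 wt peaks 2 were unmatched, 1 at Smad3 and 1 at Map3k3, against 2.9% of all Smc3 wt peaks.

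All 10 reported target genes had such a peak, against 76.9% of all genes with a Smc3 het peak. Of their 53 Smc3 het peaks 38 (71.7%) were unmatched, a share near the 69.9% of the whole list. S1pr1, the sphingosine receptor gene activated by Klf2 in T cells, had 13 of 14, the cell cycle inhibitor gene Cdkn1a 6 of 11 and Smad7 5 of 7.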
